A study of Mus musculus with 6 samples.

Results

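The factors described here build ribosomes. They are 46 named genes of the nucleolus and of ribosome assembly, taken by symbol from a list that was drawn up with earlier results of these data known, and all 46 were found among the 17060 genes listed in at least 1 culture. Mouse erythroblasts were grown from lineage-negative BM cells of WT mice in EPO-containing medium, and received for 48 hours either NUP-17d, a small-molecule inhibitor of pleckstrin-2 (Plek2), or the solvent DMSO alone. There were 3 DMSO cultures and 3 NUP-17d cultures, all of the same genotype and all exposed to EPO, and poly(A) RNA of each was sequenced. The labels do not say how many mice the cells came from, so p-values measure the spread between cultures, which may be technical. The dose of NUP-17d is not in the labels and is not given here.

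A ribosome is assembled in the nucleolus around a long precursor RNA that RNA polymerase I transcribes. Small nucleolar ribonucleoproteins (snoRNPs) guide the chemical modification of this RNA, the small-subunit processome folds and cleaves its part of the small (40S) subunit, and a separate series of factors matures the large (60S) subunit. Early erythroid cells make ribosomes at a high rate and reduce this as they mature, and inherited defects of ribosome production, such as Diamond-Blackfan anemia, cause loss of red cell precursors.

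To show the regulatory sequence upstream of some of these genes, up to 250 bases before the first base of the gene in RefSeq (build GRCm38.p6) are printed for 4 factors that were lower with NUP-17d under the scaling described below but not with library totals only, chosen after their values were seen because their windows hold short motifs known from promoters of housekeeping and growth genes. The windows, of 205 bases for Nop58 and 250 for the others, are at chr1:59684756-59684960 on the plus strand for Nop58, chr6:125131633-125131882 on the plus strand for Nop2, chr16:13780449-13780698 on the plus strand for Rrn3, and chr11:93885767-93886016 on the minus strand for Utp18. Capitals mark CACGTG, the E-box that MYC and related factors can bind, and TCTCGCGA, an element of many promoters without a TATA box.
Nop58: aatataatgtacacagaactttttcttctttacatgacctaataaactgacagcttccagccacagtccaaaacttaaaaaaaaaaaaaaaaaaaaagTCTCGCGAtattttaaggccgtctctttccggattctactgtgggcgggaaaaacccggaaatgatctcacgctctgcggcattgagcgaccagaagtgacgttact
Nop2: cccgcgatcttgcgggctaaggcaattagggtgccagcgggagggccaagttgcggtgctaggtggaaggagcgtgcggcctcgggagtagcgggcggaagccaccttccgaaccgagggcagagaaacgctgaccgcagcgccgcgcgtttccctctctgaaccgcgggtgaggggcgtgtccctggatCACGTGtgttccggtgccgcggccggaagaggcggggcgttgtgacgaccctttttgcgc
Rrn3: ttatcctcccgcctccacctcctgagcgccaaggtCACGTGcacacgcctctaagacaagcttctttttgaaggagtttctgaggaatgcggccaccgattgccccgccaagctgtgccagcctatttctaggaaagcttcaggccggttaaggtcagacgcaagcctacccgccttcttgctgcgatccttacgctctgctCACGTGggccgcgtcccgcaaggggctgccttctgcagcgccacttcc
Utp18: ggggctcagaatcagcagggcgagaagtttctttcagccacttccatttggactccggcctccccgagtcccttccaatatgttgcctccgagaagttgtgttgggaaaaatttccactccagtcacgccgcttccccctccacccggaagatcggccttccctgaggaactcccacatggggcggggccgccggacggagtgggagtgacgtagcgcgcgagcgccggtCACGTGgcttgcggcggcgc
In Nop2 the E-box spanned positions -60 to -55 from the gene's first base, and in Utp18 it spanned -20 to -15. Rrn3 was the only one of the 39 factors searched that held a pair of E-boxes, at -215 to -210 and at -48 to -43. In Nop58 the TCTCGCGA element spanned -107 to -100.

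RefSeq windows from 250 bases before to 50 bases after a transcription start, which for Nop58 lies within the gene, were at hand for 39 of the 46 factors, and those of Bop1, Fbl, Gnl2, Npm1, Rrp12, Rrs1 and Sbds were not used here. Searched on both strands, CACGTG stood in 8 of the 39 (20.5%), against 7.15% of all 32851 promoter windows and 11.8% of the 9932 tested genes with a window. The 8 were Ltv1, Nop2, Pes1, Rrn3, Tsr1, Utp18, Utp20 and Wdr43, and 5 of these were lower in the same sense, beside 19 of the 39. TCTCGCGA stood in 4 of the 39 (10.3%), namely Nop14, Nop58, Polr1c and Tsr1, against 0.995% of all windows and 2.46% of tested genes with a window. Factors and tested genes were counted once if any of their windows held the motif. GCGCATGC, a part of the NRF1 motif, stood in Nob1 and Ubtf, 5.13% of the factors against 5.95% of tested genes. AAGATGGC, a part of the YY1 motif, and AGATAA, which erythroid factors such as Gata1 can bind, stood in 0 of the 39, against 5.36% and 8.10% of tested genes. In 0 windows of these factors did different motifs overlap. A match of letters is a description of the window and not evidence of binding.

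Library totals of the deposited expected counts, which are estimated reads per gene, lay between 20278433 and 20419018 with DMSO and between 20076409 and 20170197 with NUP-17d. What filled the libraries differed, because hemoglobin genes took 18.3% to 20.3% of the counts with DMSO and 11.8% to 13.1% with NUP-17d. All 10 erythroid markers used here (hemoglobin genes, Alas2, Slc4a1, Klf1, Gata1, Epor and Tfrc) were lower with NUP-17d, at a median log2 fold change of -0.73, and their summed CPM (counts scaled to a common library size) were 215300 to 249000 with DMSO and 118800 to 133100 with NUP-17d. Stem and progenitor markers summed to 486 to 490 and 508 to 527 CPM, with 3 of 8 higher. Megakaryocyte markers summed to 415 to 449 and 479 to 505 CPM, with 4 of 6 higher, and neutrophil markers to 3380 to 3498 and 3370 to 3624 CPM, with 1 of 9 higher. Macrophage markers summed to 611 to 666 and 659 to 729 CPM, with 2 of 7 lower and 2 higher, and mast cell and basophil markers to 115 to 132 and 111 to 116 CPM, with 1 of 4 tested lower, 1 higher and Tpsb2 under 1 CPM in every culture. Lymphoid markers summed to 36.9 to 39.7 and 46.3 to 50.8 CPM, although 2 of 5 tested were lower and 1 higher, with Cd3e under 1 CPM throughout and Ighm not listed. On the same scale 18.9% of all tested genes were lower and 16.4% higher. A few called markers in a list therefore do not by themselves show a changed cell type. The part of these differences in the results below was not tested. In bulk RNA, fewer cells of a type and less RNA per cell cannot be told apart.

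With libraries scaled by the trimmed mean of M-values (TMM), which sets the typical gene near no change, 22 of the 46 ribosome biogenesis factors (47.8%) were lower with NUP-17d and 0 were higher, but with libraries scaled by their totals only, 0 were lower and 26 were higher. Of all 12306 tested genes, 18.9% were lower and 16.4% higher with TMM. With totals only, 657 of the 12306 were lower and 68.7% were higher. These shares are not matched to the factors in abundance. Scaled by the totals left after the hemoglobin genes were removed, a setting chosen after the data were seen, 2 factors (Nop58 and Npm1) were lower and 3 higher, against 8.57% and 46.4% of all tested genes. The place of the factors among other genes was the same under each of the 3, with 45 of 46 (97.8%) below the log2 fold change of the median gene. A change of scaling moves the log2 fold changes of all genes by nearly the same amount. This sameness therefore follows from the method and is no separate support. The median log2 fold change of the factors was -0.12 with TMM, where that of all genes was 0.014, and 0.15 with totals only, where that of all genes was 0.28. Only relative abundance can be read from these libraries, and which scaling reflects RNA per cell was not tested. Values below are on the TMM scale unless another is named, and each fall given for one of the 46 factors turns to a value above 0 with totals only.

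**Figure D1:**
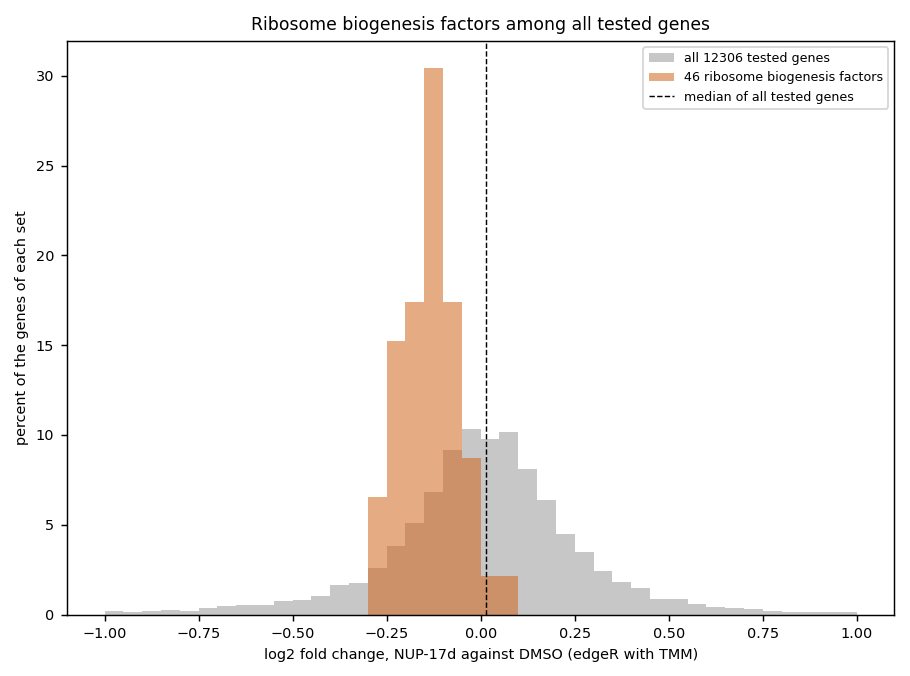
Share of genes (y axis, percent of each set) in bins of log2 fold change with TMM (x axis), for all tested genes (gray) and the 46 ribosome biogenesis factors (orange), with the median of all tested genes as a dashed line. 129 of 12306 tested genes lie beyond 1 in size and are not drawn, and the factors sit between -0.26 and 0.067, with all but Polr1c to the left of the line; with totals only the same factors would run from 0.0051 to 0.33.

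The changes were small. On the TMM scale the factors ranged from a log2 fold change of -0.26 for Npm1 to 0.067 for Polr1c, and the median of the factors corresponds to a change of -7.7%. The 46 factors summed to 3542 ± 14.8 CPM in the DMSO cultures and 3144 ± 39.2 CPM in the NUP-17d cultures (SD, n = 3 each), a difference of -11.2%. Of all counts in the library they took 0.323% ± 0.00930 with DMSO and 0.345% ± 0.000347 with NUP-17d, and of the counts without hemoglobin genes 0.399% ± 0.00641 and 0.393% ± 0.00332. The summed CPM was thus lower in every NUP-17d culture, the share of all counts was higher in every NUP-17d culture, and the share without hemoglobin overlapped between the groups. In 29 of the 46 factors the CPM of every NUP-17d culture lay below that of every DMSO culture, against 23.2% of all tested genes. The opposite held for 0 factors, against 2804 of all 12306 tested genes. The deposited FPKM values are scaled by transcript length and library total without regard to composition. In them the groups were apart and higher with NUP-17d in 29 factors, against 69.8% of all tested genes. The groups were apart and lower in 0 factors, against 681 of all 12306 tested genes. By limma on log2(FPKM + 1) 27 factors were higher, against 74.9% of all genes whose FPKM averaged 1 or more, and 27 against 74.7% with 0.1 in place of 1 added. Without that minimum 19 were higher, against 46.9% of all genes.

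**Figure D2:**
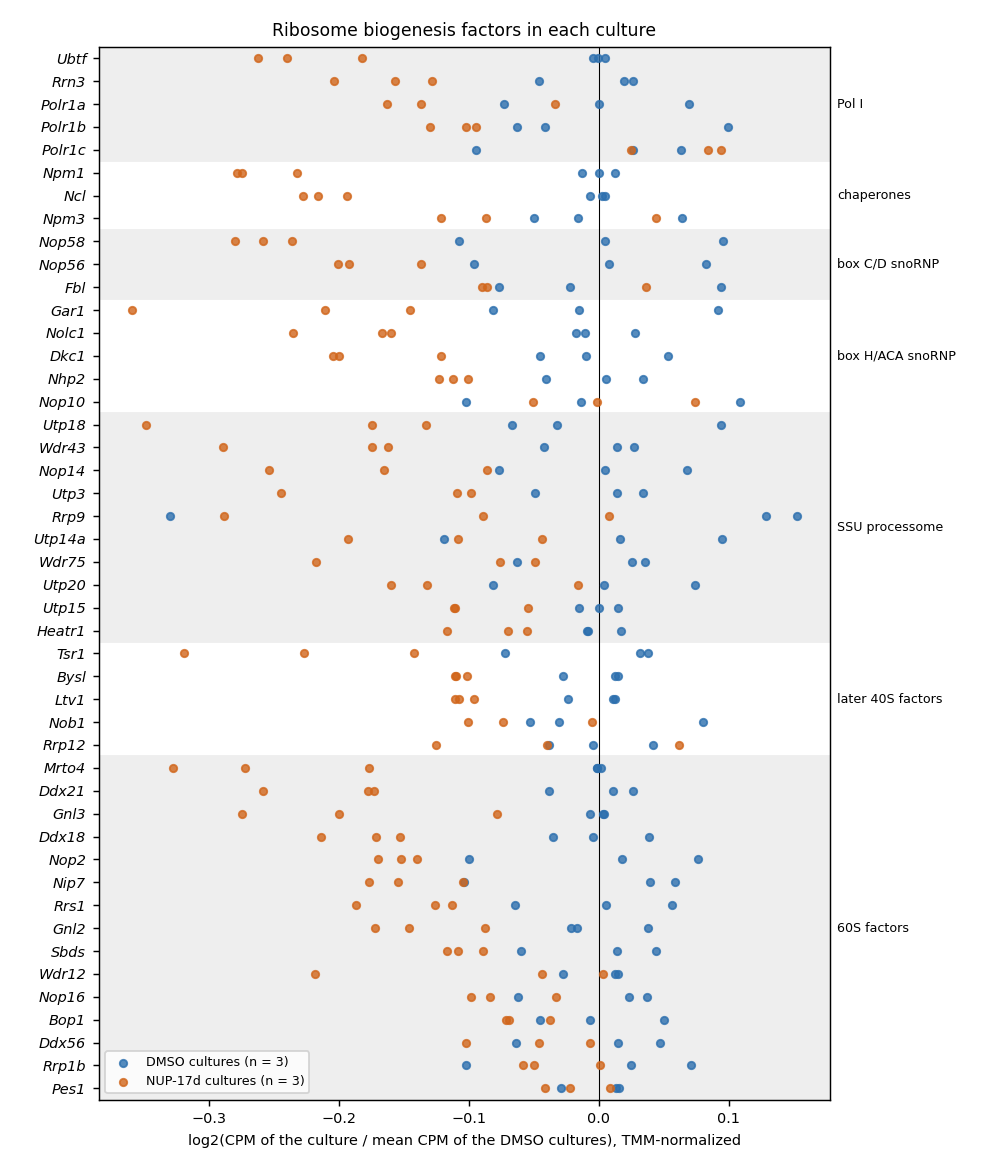
Each culture's TMM-normalized CPM as a log2 ratio to the mean of the DMSO cultures (x axis), for each of the 46 factors (y axis, grouped by role), with DMSO cultures in blue and NUP-17d cultures in orange (n = 3 each). The orange points lie wholly left of the blue ones in 29 factors on this scale; with totals only every factor's fitted change is above 0.

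The counts by role given from here on are of small groups, and stand beside 18.9% of all tested genes lower with TMM. The transcription machinery of RNA polymerase I had 2 of 5 genes lower, and their median log2 fold change was -0.11. Ubtf (Entrez 21429, chr11:102304560-102323649, minus strand), the upstream binding factor that keeps ribosomal DNA open for transcription, was at 191, 191 and 192 CPM in the DMSO cultures and at 162, 159 and 168 CPM in the NUP-17d cultures. The groups lay apart, and the DMSO cultures were almost the same. Its log2 fold change was -0.23 (SE 0.035, edgeR quasi-likelihood test, adjusted p = 8.77e-06). Rrn3, the initiation factor that recruits RNA polymerase I in response to growth signals and whose upstream sequence is printed above, was at 51.5, 54.1 and 53.9 CPM with DMSO and at 46.2, 48.6 and 47.7 CPM with NUP-17d. Every NUP-17d culture was below every DMSO culture, with a log2 fold change of -0.16 (SE 0.044, adjusted p = 0.00459). The largest polymerase subunit behaved less clearly. Polr1a was at 53.9, 56.5 and 51.2 CPM with DMSO and at 52.6, 48.1 and 49.0 CPM with NUP-17d, so NUP-17d culture 1 lay among the DMSO cultures, and the log2 fold change of -0.11 (SE 0.047) did not pass the test (adjusted p = 0.0734). It did pass when DMSO culture 3 or NUP-17d culture 1 was left out, at -0.15 in each case. Polr1b, the second largest subunit, was at -0.11 and did not pass. Polr1c, a subunit that RNA polymerase I shares with RNA polymerase III, was at 0.067 with a 95% confidence interval from -0.073 to 0.21, and was the only factor above the median of all genes.

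Of the nucleolar chaperones, 2 of 3 were lower, and they had the smallest p-values of all the factors together with Ubtf. Npm1 (nucleophosmin, Entrez 18148, chr11:33152498-33164142, minus strand), the abundant chaperone of the granular part of the nucleolus, was at 533, 543 and 538 CPM with DMSO and at 444, 445 and 458 CPM with NUP-17d. All NUP-17d cultures lay below all DMSO cultures, and the log2 fold change was -0.26 (SE 0.033, adjusted p = 4.89e-07), a change of -16.6%. With totals only this was 0.0051 (adjusted p = 0.892). Ncl (nucleolin, Entrez 17975, chr1:86344719-86359455, minus strand), which binds the nascent precursor RNA, was at 650, 655 and 654 CPM with DMSO and at 571, 558 and 562 CPM with NUP-17d. Its groups were also apart, with a log2 fold change of -0.21 (SE 0.033, adjusted p = 1.04e-05) and 0.055 with totals only (adjusted p = 0.12). Npm3, a partner of Npm1 of the same family, was at 30.3, 31.1 and 32.8 CPM with DMSO and at 29.6, 32.4 and 28.9 CPM with NUP-17d. These groups overlapped, and the log2 fold change was -0.053 (SE 0.055, adjusted p = 0.492). Ncl and Npm1 made up 33.6% ± 0.0884 of the counts of the 46 factors in the DMSO cultures and 32.2% ± 0.198 in the NUP-17d cultures (SD, n = 3).

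The core proteins of box C/D snoRNPs, which methylate the ribosomal RNA, had 2 of 3 genes lower. Nop58 (Entrez 55989, chr1:59684961-59711510, plus strand), a scaffold protein of the particle whose upstream sequence is printed above, was at 81.6, 88.3 and 94.0 CPM with DMSO and at 73.5, 72.5 and 74.7 CPM with NUP-17d. The DMSO cultures were more spread than the NUP-17d cultures but stayed above them, and the log2 fold change was -0.26 (SE 0.045, adjusted p = 4.31e-05). Nop56, the partner scaffold, was at 133, 124 and 140 CPM with DMSO and at 116, 115 and 121 CPM with NUP-17d. These groups were apart too, at -0.18 (SE 0.041, adjusted p = 0.00139). Fbl (fibrillarin), the methyltransferase of the particle, was at 98.0, 110 and 102 CPM with DMSO and at 97.1, 97.4 and 106 CPM with NUP-17d. NUP-17d culture 3 lay among the DMSO cultures, and the log2 fold change of -0.046 (SE 0.044, adjusted p = 0.452) became 0.0028 without DMSO culture 2.

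The box H/ACA group, which converts uridines of the ribosomal RNA to pseudouridine, had 4 of 5 genes lower, with a median of -0.18. Nolc1, a nucleolar phosphoprotein that binds both kinds of snoRNP, was at 121, 118 and 117 CPM with DMSO and at 106, 101 and 106 CPM with NUP-17d. The groups were apart, at a log2 fold change of -0.19 (SE 0.037, adjusted p = 2.45e-04). Dkc1 (dyskerin), the pseudouridine synthase that is mutated in dyskeratosis congenita, was at 80.0, 85.7 and 82.0 CPM with DMSO and at 71.9, 71.6 and 75.9 CPM with NUP-17d, at -0.18 (SE 0.041, adjusted p = 0.00134). Gar1, a core protein of the particle, was at 19.4, 21.9 and 20.3 CPM with DMSO and at 16.0, 18.6 and 17.7 CPM with NUP-17d, at -0.24 (SE 0.069, adjusted p = 0.00854). The groups of both were apart, although Gar1 no longer passed without DMSO culture 2 or without NUP-17d culture 1, at -0.19 and -0.18. Nhp2, a further core protein, was lower at -0.11 but did not pass in 5 of 6 fits with a culture left out (all but DMSO culture 3, at -0.12 to -0.095), nor with DESeq2 (-0.12) or without the filter on low counts (-0.11). Nop10, the smallest core protein, was at 0.0088, with a 95% confidence interval from -0.10 to 0.12.

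The small-subunit processome had 4 of 10 genes lower and 10 of 10 with a log2 fold change below 0 on the TMM scale, with a median of -0.12. Wdr43 (the ortholog of yeast Utp5), which joins the precursor RNA early, was at 61.3, 64.3 and 63.7 CPM with DMSO and at 56.4, 51.7 and 55.9 CPM with NUP-17d. The groups were apart, at -0.21 (SE 0.044, adjusted p = 5.04e-04). Utp18, whose upstream E-box is shown above, was at 29.9, 30.6 and 33.4 CPM with DMSO and at 24.6, 27.8 and 28.6 CPM with NUP-17d. All of the NUP-17d cultures were lower, NUP-17d culture 1 most, at -0.22 (SE 0.060, adjusted p = 0.0063). Nop14 was at 35.5, 33.6 and 37.1 CPM with DMSO and at 29.7, 33.4 and 31.6 CPM with NUP-17d. NUP-17d culture 2 came close to DMSO culture 2 without passing it, and the log2 fold change was -0.17 (SE 0.054, adjusted p = 0.0189). Neither Utp18 nor Nop14 passed without DMSO culture 3, at -0.17 and -0.13, or without NUP-17d culture 1, at -0.15 and -0.12. Utp3 was also lower, at -0.15, but did not pass without DMSO culture 1 (-0.13) or 3 (-0.14), without NUP-17d culture 1 (-0.10) or with DESeq2 (-0.15). The other 6, Wdr75, Utp14a, Utp15, Utp20, Rrp9 and Heatr1, lay between -0.12 and -0.080 and did not pass, although Utp14a did without DMSO culture 3 (-0.17) and Utp20 without NUP-17d culture 1 (-0.15). Rrp9, the processome protein that recognises the U3 snoRNA, had the widest error (SE 0.094). It was at 19.5, 19.2 and 14.0 CPM with DMSO and at 14.4, 16.5 and 17.6 CPM with NUP-17d, with DMSO culture 3 below every NUP-17d culture, and it passed without that culture, at -0.26.

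Of the 5 factors that act later on the 40S subunit, 1 was lower. Tsr1, a GTPase-like protein of the cytoplasmic 40S precursor, was at 34.6, 34.7 and 32.2 CPM with DMSO and at 27.1, 30.7 and 28.9 CPM with NUP-17d. The groups were apart, at a log2 fold change of -0.23 (SE 0.055, adjusted p = 0.00197). Tsr1 shares 1159 exonic bases with Srr on the opposite strand, and reads of such partners cannot be told apart, since the sources differ on whether the libraries kept the strand. Other opposite-strand overlaps above 100 exonic bases were those of Utp14a (473), Bysl with Ccnd3 (361), Polr1a (185), Nop14 (144) and Pes1 (138). Bysl (bystin), which is needed for processing of the 40S precursor, was at 42.3, 41.1 and 42.2 CPM with DMSO and at 39.0, 38.8 and 38.8 CPM with NUP-17d. Ltv1, an assembly factor of the 40S precursor, was at 31.3, 32.1 and 32.1 CPM with DMSO and at 29.8, 29.5 and 29.6 CPM with NUP-17d. Both had groups that lay apart, but their log2 fold changes of -0.11 (SE 0.045) and -0.11 (SE 0.050) did not pass (adjusted p = 0.0693 and 0.106). Nob1, the endonuclease that makes the final cut of the 18S RNA, was at -0.060, and Rrp12, an export factor, was at -0.033.

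The 60S factors were the largest group, with 7 of 15 lower and a median of -0.13. Ddx21, an RNA helicase of the nucleolus, was at 163, 164 and 157 CPM with DMSO and at 143, 135 and 143 CPM with NUP-17d. Its groups were apart, at a log2 fold change of -0.20 (SE 0.037, adjusted p = 8.25e-05). Mrto4, which holds the place of the stalk protein P0 on the 60S precursor, was at 28.6, 28.6 and 28.7 CPM with DMSO and at 22.8, 23.7 and 25.4 CPM with NUP-17d. The 3 DMSO cultures were nearly equal and all NUP-17d cultures lay below them, at -0.26 (SE 0.056, adjusted p = 6.31e-04). Ddx18, another helicase, was at 57.7, 58.9 and 60.7 CPM with DMSO and at 53.2, 51.0 and 52.5 CPM with NUP-17d, at -0.18 (SE 0.042, adjusted p = 0.00145). The nucleolar GTPases Gnl3 (nucleostemin) and Gnl2 were lower at -0.18 and -0.13, and the RNA methyltransferase Nop2 and the 5S particle factor Rrs1 were lower at -0.15 and -0.14. Of these, Gnl2 did not pass without DMSO culture 3 (-0.12), NUP-17d culture 1 (-0.12) or 2 (-0.13), and Nop2 did not pass without DMSO culture 3 (-0.11). Rrs1 did not pass without DMSO culture 2 (-0.11) or 3 (-0.14), without NUP-17d culture 1 (-0.12) or 2 (-0.15), or without the filter on low counts (-0.14), and neither Gnl2 (-0.14) nor Rrs1 (-0.15) passed with DESeq2. The other 8 were Nip7 at -0.15, Sbds at -0.10, Wdr12 at -0.084, Nop16 at -0.071, Bop1 at -0.059, Ddx56 at -0.051, Rrp1b at -0.036 and Pes1 at -0.018, none of which passed, although without DMSO culture 1 Nip7 did (-0.19) and without DMSO culture 3 Sbds did (-0.13). Sbds, mutated in Shwachman-Diamond syndrome, works with a GTPase to release the last anti-association factor from the 60S subunit. Pes1, Bop1 and Wdr12 form a single complex, PeBoW, and all 3 did not pass, with 95% confidence intervals from -0.099 to 0.063, from -0.15 to 0.033 and from -0.21 to 0.042.

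**Figure D3:**
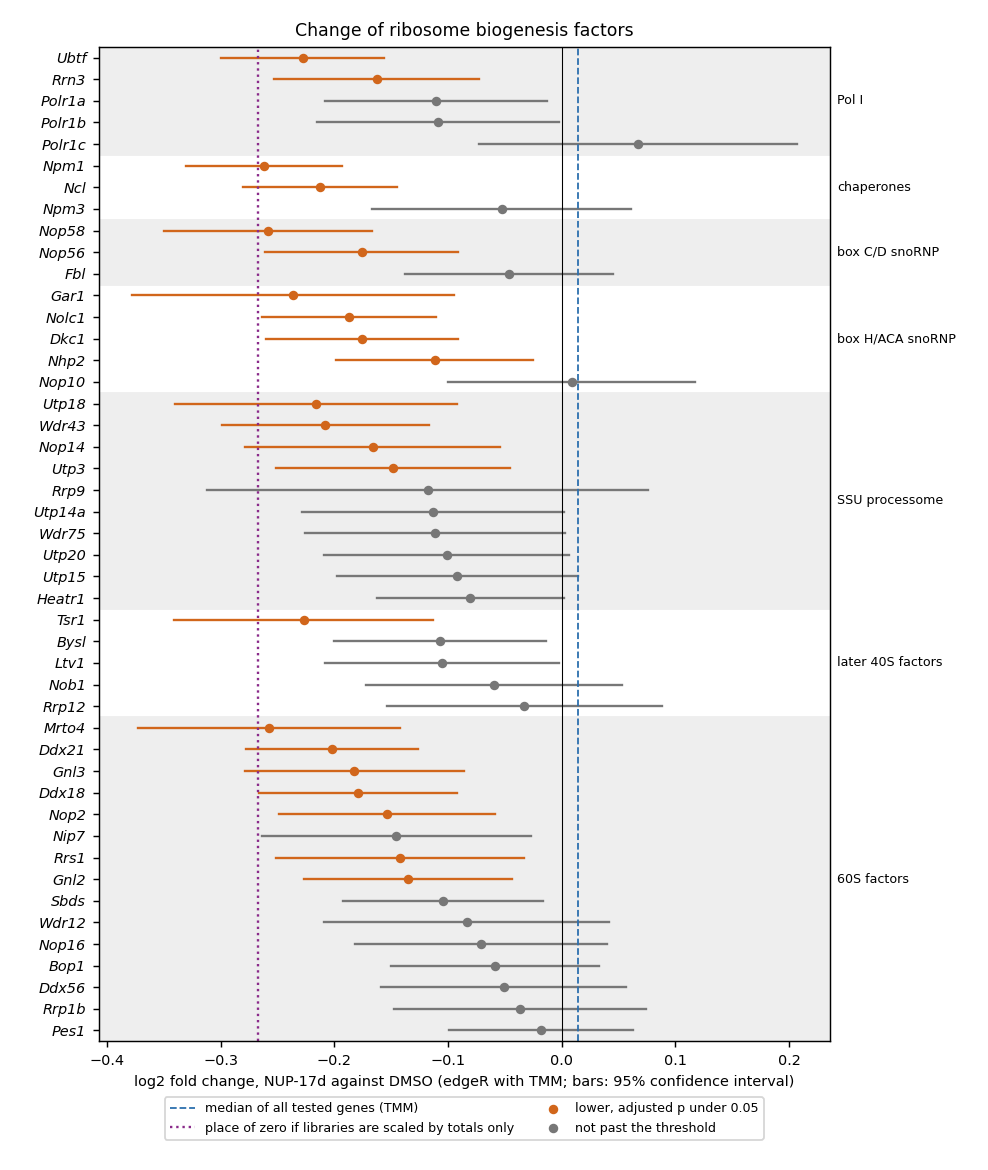
Log2 fold change of NUP-17d against DMSO with TMM (x axis; points, edgeR estimate; bars, 95% confidence interval) for the 46 factors (y axis, grouped by role), in orange where the adjusted p was under 0.05 and in gray elsewhere. The 22 orange factors lie left of 0, and the purple dotted line shows where 0 would lie with totals only, where every factor falls to its right.

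With totals only the same order showed from the other side. The factors with the least change were Npm1 at 0.0051, Nop58 at 0.0079 and Mrto4 at 0.0093, none of which passed (adjusted p = 0.892, 0.894 and 0.893). Those with the most were Polr1c at 0.33, Nop10 at 0.28 and Pes1 at 0.25, which passed and, as components of RNA polymerase I, box H/ACA particles and PeBoW, belong to separate machines. These last 3 were also the 3 called higher when hemoglobin genes were removed and totals were used, at 0.22, 0.16 and 0.13 (adjusted p = 0.0109, 0.012 and 0.00732), and they are named here after their values were seen. In that setting Npm1 was at -0.11 (adjusted p = 0.00315) and Nop58 at -0.11 (adjusted p = 0.0482). In the TMM fit, 11.4% of all tested genes had a log2 fold change lower than that of Npm1 and 60.8% had one lower than that of Polr1c, so even the lowest factors were not among the most reduced genes of the cultures.

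Ratios between genes of the same or a related machine do not depend on how the libraries are scaled, and 10 were compared. Fbl to Nop58 was 1.20, 1.25 and 1.08 with DMSO and 1.32, 1.34 and 1.42 with NUP-17d, a log2 difference of 0.21. Npm3 to Npm1 was 0.0569, 0.0572 and 0.0611 with DMSO and 0.0667, 0.0728 and 0.0631 with NUP-17d, also a log2 difference of 0.21. Nop10 to Dkc1 was 0.557, 0.450 and 0.5 with DMSO and 0.575, 0.558 and 0.574 with NUP-17d, a log2 difference of 0.18. This last difference was 0.26 without DMSO culture 1 and 0.11 without DMSO culture 2. In these 3 ratios every NUP-17d culture was above every DMSO culture, though DMSO culture 1 came close for Nop10 to Dkc1. Each had p = 0.1 in a 2-sided exact permutation test, the smallest that 3 cultures against 3 can give, and an adjusted p of 0.333 over the 10 ratios, so no ratio passed. The other 7, Bop1 and Wdr12 to Pes1, Nop56 to Nop58, Nhp2 and Gar1 to Dkc1, Gnl2 to Gnl3 and Polr1b to Polr1a, overlapped between the groups, with differences from -0.068 to 0.081 and exact permutation p from 0.2 to 1.

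**Figure D4:**
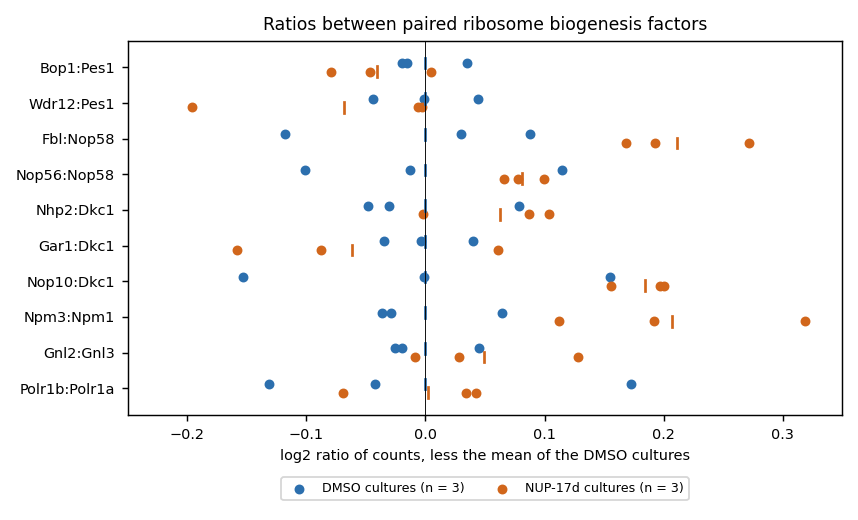
Log2 ratio of the counts of paired genes in each culture, less the mean of the DMSO cultures (x axis), for 10 pairs (y axis), with DMSO cultures in blue, NUP-17d cultures in orange (n = 3 each) and short lines at the group means. The groups are apart for Fbl to Nop58, Nop10 to Dkc1 and Npm3 to Npm1, at 0.21, 0.18 and 0.21, and overlap for the other 7.

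Levels per transcript length were compared in the deposited FPKM. Npm1 stood above the rest in every culture, at 344, 369 and 361 FPKM with DMSO and 358, 358 and 362 FPKM with NUP-17d. Fbl followed at 75.4, 89.1 and 81.2 FPKM with DMSO and 93.2, 93.9 and 99.8 FPKM with NUP-17d. Ncl had the most counts, but its FPKM rests on 1 listed transcript of 8257 bases, against 1159 for Fbl. Ncl was at 68.3, 72.3 and 71.2 FPKM with DMSO and 74.9, 73.5 and 72.3 FPKM with NUP-17d, overlapping Nop56 in neither group. At the other end, Utp20, a very large scaffold protein of the processome, was at 4.06, 4.06 and 3.78 FPKM with DMSO and 4.76, 4.33 and 4.31 FPKM with NUP-17d. The Npm1 groups overlapped on this scale, whereas those of Fbl and Utp20 were apart and higher with NUP-17d.

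**Figure D5:**
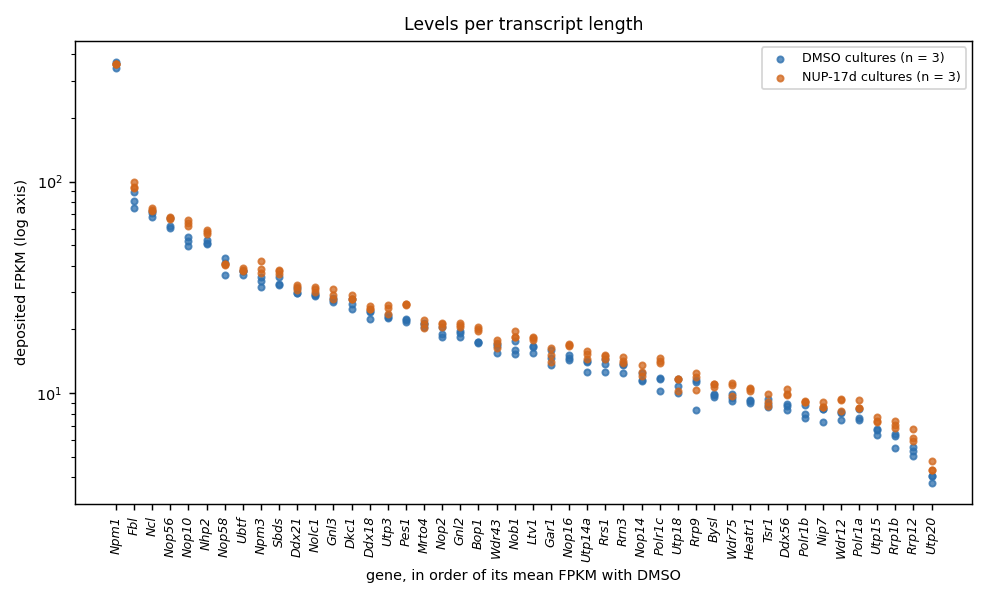
Deposited FPKM of each culture (y axis, log scale) for the 46 factors in order of their mean with DMSO (x axis), with DMSO cultures in blue and NUP-17d cultures in orange (n = 3 each). Npm1 lies highest, between 344 and 369, and Utp20 lowest, between 3.78 and 4.76, and most orange points sit at or above the blue ones on this scale, which is divided by library totals, whereas with TMM most lie below.

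Whether a factor passed the test went with its abundance. Of the 23 factors with the lower mean CPM (16.0 to 41.4 with DMSO) 6 were lower and of the 23 with the higher mean CPM (41.7 to 653) 16 were lower, with median SEs of 0.055 and 0.043 on the log2 scale. The shares lower were 26.1% and 69.6%, against 18.9% of all tested genes, a share that is not matched for abundance. Median log2 fold changes in these sets were -0.11 and -0.16. A factor that did not pass is therefore not shown to be unchanged. Of the 8 factors with several transcripts in the files, all had overlapping groups in the mean transcript length that the authors list for each culture.

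A wider list of 121 other ribosome biogenesis genes was all tested, and showed the same lean. This list, too, was drawn up with earlier results of these data known, and is no separate support. With TMM 36 were lower (29.8%, against 18.9% of all tested genes), 2 were higher (1.65%, against 16.4%) and 83 did not pass. Their median log2 fold change was -0.081, and 103 (85.1%) lay below the median of all genes. With totals only 1 was lower, against 657 of all 12306 tested genes, and 83 were higher, with a median of 0.19. There 68.7% of all tested genes were higher too. Riok3, a kinase of the late 40S subunit that is also needed for enucleation of erythroblasts, was at 466, 431 and 453 CPM with DMSO and at 283, 283 and 287 CPM with NUP-17d. At a log2 fold change of -0.66 (SE 0.035, adjusted p = 3.56e-14), its fall was larger than that of any of the 46 factors, and it was lower with totals only as well. Mybbp1a, a nucleolar protein that binds MYB, and Ftsj3, a methyltransferase of 60S assembly, were lower at -0.18 and -0.22 (SE 0.034 and 0.041, adjusted p = 1.06e-04 and 1.38e-04), and each was above 0 with totals only. The 2 that were higher were Nop53, a 60S factor, at 156, 145 and 142 CPM with DMSO and 161, 160 and 164 CPM with NUP-17d, and Taf1b, a subunit of the promoter factor SL1, at 12.5, 14.3 and 13.3 CPM with DMSO and 15.9, 15.8 and 14.9 CPM with NUP-17d. Their log2 fold changes were 0.13 (SE 0.038, adjusted p = 0.00831) and 0.22 (SE 0.073, adjusted p = 0.0221). Nop53 did not pass without DMSO culture 2 (0.12) or 3 (0.10), and Taf1b did not pass without DMSO culture 1 (0.17) or 3 (0.21) or without NUP-17d culture 1 (0.20) or 2 (0.20).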

How the data were processed

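Lineage-negative mouse BM cells in EPO medium were cultured with DMSO (n = 3) or NUP-17d (n = 3) for 48 hours, and groups follow the labels. Per the labels, poly(A) RNA was reverse transcribed from random primers and sequenced on a DNBseq instrument on build mm10, whereas the methods of the study name a stranded kit and another instrument. The authors deposited 1 table per culture with an expected count (estimated reads per gene, 27.8% to 28.5% of them not whole), an FPKM (scaled by transcript length and library total by the authors) and a mean transcript length for each gene with reads. A gene not listed was taken as 0. The aligner and counter are not given in the sources used here.

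Expected counts were rounded to whole numbers and tested with edgeR 4.0.16 in R 4.3.3 (filterByExpr, TMM, glmQLFit and glmQLFTest, Benjamini-Hochberg over 12306 genes, threshold 0.05), and the standard error is the log2 fold change divided by the root of F. CPM are TMM-normalized. Of the 46 factors, 35 had whole counts in every culture. In 10 no culture had a whole count, among them Ncl, Ubtf, Rrn3, Dkc1 and Tsr1, which were lower with TMM. The others of the 10 were Nop16, Rrp1b, Bysl, Polr1b and Nip7, and Wdr12 had counts that were not whole in 3 cultures. Ratios had 0.5 added to each count, and were compared with 2-sided exact permutation tests. Statistics in full were given for up to 3 factors per role with the lowest p-values and for up to 3 other genes in each direction. The members, lists and motifs were chosen with earlier results of these data known, and comparisons with the median of all genes were added after seeing the values.

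Alternatives were DESeq2 1.42.0, DESeq2-type (RLE) size factors, totals only, no filter, hemoglobin genes removed (with TMM, and with totals only as an added setting), limma 3.58.1 on log2(FPKM + 1) with and without a minimum mean FPKM of 1 and on log2(FPKM + 0.1), the culture number as a block, and each culture left out. Replicates of one group differed by more than sampling noise (chi-square per degree of freedom 1.84 to 4.59). The fits were tested on simulated counts with known changes. Genome positions and promoters come from RefSeq on GRCm38.p6 and exon overlaps from GENCODE M21. A further gene of the erythroid marker list is not reported here.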

Additional observations from a re-analysis of the deposited data

How the results depend on the processing

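With RLE size factors, DESeq2, no filter, or hemoglobin genes removed under TMM, 17 to 24 of the 46 factors were lower and 0 higher, and 45 lay below the median of all genes. In these settings, in the order named, 2383 of 12306, 1877 of 12306, 2216 of 17014 and 2321 of 12283 tested genes were lower. In the same order 1962, 1276, 1989 and 2029 were higher. The factors' median log2 fold change was 0.15 with totals only (0 lower, 26 higher), 0.034 with totals without hemoglobin (2 lower, 3 higher), and, by limma, 0.14 on log2(FPKM + 1) and 0.16 on log2(FPKM + 0.1) (0 lower and 27 higher in each, where 74.9% and 74.7% of all genes were higher), and 0.14 without the FPKM filter (0 lower, 19 higher, with 46.9% of all genes). Less the median of all genes it was -0.14 without the count filter, -0.096, -0.11 and -0.00036 in these limma settings, and 23 factors lay below that median in the last, where the filter no longer removes unexpressed genes from it. Leaving out a culture gave 17 to 21 factors lower, 43 to 45 below the median of all genes, a median of -0.14 to -0.12, and of -0.16 to -0.13 less that of all genes. In those fits 12415 to 12462 genes were tested, of which 2035 to 2181 were lower and 1642 to 1827 higher.

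For the 121 other genes the median was 0.19 with totals only (1 lower, 83 higher), 0.068 with totals without hemoglobin (1 lower, 28 higher), 0.17 on log2(FPKM + 1) (1 lower, 85 higher; without the filter 72 higher), and 0.19 on log2(FPKM + 0.1) (1 lower, 85 higher). In these settings, in the order named, 68.7%, 46.4%, 74.9%, 46.9% and 74.7% of all tested genes were higher. In the same order 657 of 12306, 1053 of 12283, 599 of 10543, 655 of 17060 and 600 of 10543 were lower. DESeq2 called 18 of the 121 lower and 1 higher, against 1877 and 1276 of 12306 tested genes. Less the median of all genes, that of the 121 was -0.062 and -0.080 with the FPKM filter and 0.033 without it, where 45 lay below. Leaving out a culture gave 24 to 32 lower, 0 to 2 higher, a median of -0.094 to -0.074, and -0.11 to -0.088 less that of all genes. Of all genes tested in those fits, 2035 to 2181 were lower and 1642 to 1827 higher. The 46 factors' share of counts, 0.0220 percentage points higher with NUP-17d, was -0.00618 points without hemoglobin genes, 0.0418 points of summed FPKM, and 0.0168 to 0.0257 points with a culture left out. With a culture left out, the log2 differences of Fbl to Nop58, Npm3 to Npm1 and Nop10 to Dkc1 ran from 0.15 to 0.25, from 0.15 to 0.26 and from 0.11 to 0.26. That of Polr1b to Polr1a (0.0025) ran from -0.063 to 0.089 with a culture left out.

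The log2 fold changes that turned with totals only were 0.039 for Ubtf, 0.10 for Rrn3, 0.16 for Polr1a, 0.0051 for Npm1, 0.055 for Ncl, 0.21 for Npm3, 0.0079 for Nop58, 0.091 for Nop56, 0.22 for Fbl, 0.080 for Nolc1, 0.091 for Dkc1, 0.030 for Gar1, 0.059 for Wdr43, 0.051 for Utp18, 0.10 for Nop14, 0.040 for Tsr1, 0.16 for Bysl, 0.16 for Ltv1, 0.065 for Ddx21, 0.0093 for Mrto4, 0.088 for Ddx18, 0.084 for Mybbp1a and 0.049 for Ftsj3. On log2(FPKM + 1), with and without the filter, and then on log2(FPKM + 0.1), they were 0.042 and 0.043 for Ubtf, 0.10 and 0.11 for Rrn3, 0.14 and 0.16 for Polr1a, 0.0061 and 0.0061 for Npm1, 0.058 and 0.059 for Ncl, 0.21 and 0.22 for Npm3, 0.015 and 0.016 for Nop58, 0.095 and 0.097 for Nop56, 0.22 and 0.23 for Fbl, 0.082 and 0.084 for Nolc1, 0.095 and 0.098 for Dkc1, 0.033 and 0.035 for Gar1, 0.059 and 0.063 for Wdr43, 0.050 and 0.055 for Utp18, 0.096 and 0.10 for Nop14, 0.038 and 0.042 for Tsr1, 0.15 and 0.16 for Bysl, 0.16 and 0.17 for Ltv1, 0.067 and 0.069 for Ddx21, 0.013 and 0.013 for Mrto4, 0.089 and 0.092 for Ddx18, 0.087 and 0.088 for Mybbp1a, and 0.052 and 0.054 for Ftsj3. With totals without hemoglobin they were 0.039 for Polr1a, 0.097 for Npm3, 0.10 for Fbl, 0.042 for Bysl and 0.044 for Ltv1. Fbl ran from -0.090 to 0.0028 with a culture left out. These settings differ in the library scaling. The TMM factors, which multiply the library totals, were 0.887 to 0.930 with DMSO and 1.08 to 1.11 with NUP-17d. With totals only no such factor is used. Why the TMM factors differ between the groups was not tested.

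With the culture number as a replicate block, 24 factors were lower, the 22 of the fit without it and Nip7 and Sbds, with a median of -0.11. In that fit 2422 of all 12306 tested genes were lower. The numbers are not shown to pair the cultures, since the deviations of same-numbered cultures correlated at 0.034, -0.021 and -0.032. DESeq2 lost 5 of the 22 calls (Gnl2, Nhp2, Nop14, Rrs1 and Utp3), and Taf1b (0.21) did not pass there. Leaving out NUP-17d culture 1 lost 7 and gained 2, leaving out DMSO culture 3 lost 6 and gained 4, and leaving out another culture lost 1 to 3 and gained 0 or 1. The SEs of the factors with the lower counts (median 0.055) limit what changes of this size can pass.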
